A study of Homo sapiens with 4 samples.

Results

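The human genes for Wnt ligands, for their Frizzled and LRP receptors and for the secreted proteins that antagonise them were examined for binding of BRG1, the ATPase of the SWI/SNF chromatin remodeller, and of a mutant form of it. The list held 41 of 20162 protein-coding genes and was defined by gene family, with no measured value in the rule, and comprised 19 WNT ligands, 12 receptors (FZD1 to FZD10, LRP5 and LRP6) and 10 antagonists (SFRP1, SFRP2, SFRP4, SFRP5, FRZB, DKK1 to DKK4 and WIF1). All 41 symbols were found in the annotation. A peak was counted at a gene when it touched the gene body or the 5 kb on either side of it. By that rule the 41 genes took in 27 of the 24212 peaks in the iBRG1 list and 23 of the 25371 in the i∆HSA list.

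CUT&RUN, in which an antibody guides a nuclease to cut out the DNA bound by a protein, was done with anti-V5 in SW-13, an adrenocortical carcinoma line that makes neither BRG1 nor its paralogue BRM. The iBRG1 line carried doxycycline-inducible BRG1 with a C-terminal V5 tag. The i∆HSA line carried the same construct without the HSA domain, the stretch of BRG1 that holds actin and actin-related proteins, and its libraries are titled HSA-V5. Each line was 1 clone, both were induced for 24 h, and 300000 cells went into each sample. Each construct had 2 samples but only 1 deposited peak list, with 1 whole-number score per peak and no value per replicate. Replicate error is therefore unknown, no test between the constructs could be made, and every difference below is one between 2 lists. A difference between constructs also cannot be told apart from one between clones. Uninduced cells were not analysed here, and the scale of the score and the read depth reached are not given in the sources used here.

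Wnt proteins are secreted lipid-modified ligands that bind Frizzled receptors, and in the canonical branch they also engage the co-receptors LRP5 and LRP6, which stabilises beta-catenin so that it can act with TCF/LEF factors on DNA. SFRP proteins, FRZB and WIF1 bind Wnt proteins outside the cell, whereas DKK1 blocks the LRP co-receptors. In the adrenal cortex this pathway maintains the outer zone, and its beta-catenin branch is often activated in adrenocortical tumours.

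Wnt genes held iBRG1 peaks at 14 of 41 loci (34.1%), against 44.0% of all protein-coding genes, and i∆HSA peaks at 17 of 41 (41.5%), against 49.1%. Peaks in both lists were found at 11 genes. FZD4, SFRP4 and DKK2 had them in the iBRG1 list alone. WNT3A, WNT7B, WNT9A, FZD2, LRP5 and FRZB had them in the i∆HSA list alone. The other 21 genes had none.

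Gene length bears on these shares, because a longer gene offers more room for a peak. Each Wnt gene was therefore set beside the 500 other protein-coding genes nearest to it in length. Genes of like length would have given 16.7 genes with an iBRG1 peak and 19.3 with an i∆HSA peak. Both counts at the Wnt genes were slightly lower. The spread of the values at like length was not computed, here or below, so no shortfall or excess was tested. The 27 iBRG1 peaks compared with 27.5 at genes of like length, and the 23 i∆HSA peaks with 31.5. With peaks of score 5 and above alone, 6 Wnt genes (14.6%) had an iBRG1 peak and 9 (22%) an i∆HSA peak, against 18.1% and 28.2% of all protein-coding genes. With the window widened to 20 kb the order of the lists turned, with 22 Wnt genes in the iBRG1 list and 20 in the i∆HSA list, against 58.0% and 64.6% of all protein-coding genes.

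**Figure D1:**
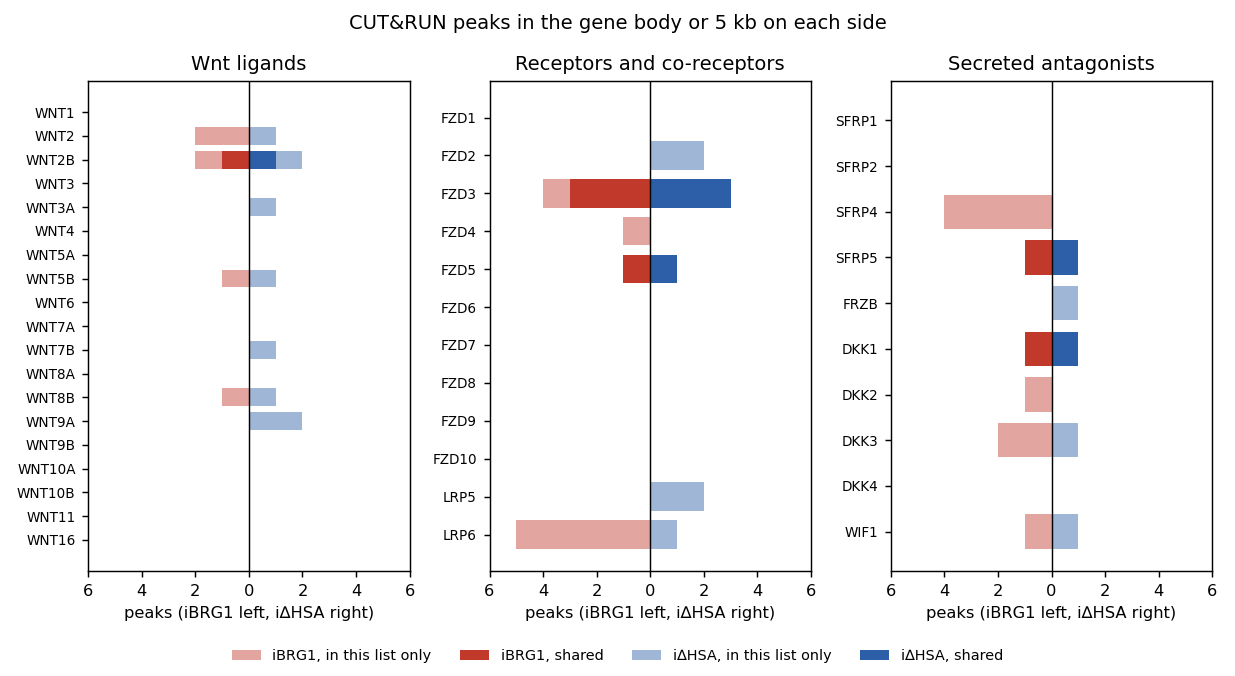
Number of peaks at each of the 41 Wnt genes, with the iBRG1 list to the left of 0 and the i∆HSA list to the right, and dark bars for shared peaks. LRP6 had 5 iBRG1 peaks and 1 i∆HSA peak, and SFRP4 had 4 and 0. Genes of like length had a mean of 1.81 and 1.94 for LRP6, and 1.63 and 1.61 for SFRP4.

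Genome-wide the share with a peak rose with each length class, and most Wnt genes with no peak fell in the 2 shorter classes. In the iBRG1 list it was 4 of 15 Wnt genes under 10 kb, 2 of 12 between 10 and 50 kb, 6 of 12 between 50 and 150 kb and 2 of 2 above that. The same classes of all protein-coding genes gave 21.4%, 36.6%, 63.0% and 85.4%. In the i∆HSA list the Wnt genes gave 4 of 15, 4 of 12, 8 of 12 and 1 of 2, against 25.5%, 45.1%, 67.6% and 81.2%. Of the 21 genes with no peak, 10 were under 10 kb.

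**Figure D2:**
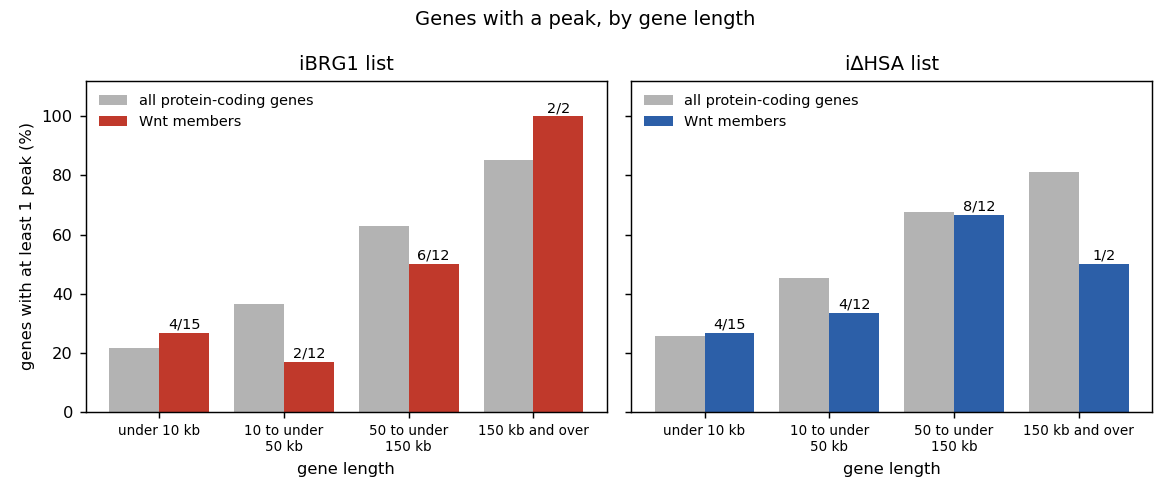
Percentage of genes with a peak (vertical axis) by gene length class (horizontal axis), for the Wnt genes and all protein-coding genes in each list. In the class of 10 to 50 kb the Wnt genes were below all protein-coding genes in both lists.

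A promoter peak, one that touched the 1 kb on either side of any annotated start site, was present at 5 Wnt genes in the iBRG1 list (WNT2B, WNT5B, FZD5, SFRP5 and DKK3), beside 18.2% of all protein-coding genes and 7.25 genes of like length. It was present at 6 in the i∆HSA list (WNT2B, WNT7B, WNT9A, FZD2, FZD5 and SFRP5), beside 20.9% and 8.50 genes of like length. WNT2B, FZD5 and SFRP5 had one in both lists, beside 7.69% of all genes and 3.05 of like length. A shared peak, with 1 bp or more in common between the lists, lay at 5 Wnt genes (WNT2B, FZD3, FZD5, SFRP5 and DKK1), beside 16.4% of all genes and 6.02 of like length.

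The WNT ligands had the fewest genes with a peak for their length. Of the 19, 4 had an iBRG1 peak, where genes of like length gave 7.87, and 7 had an i∆HSA peak, where they gave 9.37. The ligands held 6 iBRG1 and 9 i∆HSA peaks, against 11.3 and 14.0. No peak was listed at WNT1, WNT3, WNT4, WNT5A, WNT6, WNT7A, WNT8A, WNT9B, WNT10A, WNT10B, WNT11 or WNT16. That set includes WNT4, a ligand of adrenal and kidney development, and WNT5A, the best known ligand of the non-canonical branch. WNT5A lay 1023145 bp from the nearest i∆HSA peak.

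WNT2B, a canonical ligand, was the single ligand with a shared peak. The iBRG1 peak at chr1:113056006-113059977 had a score of 2 and covered exons 2 to 4 of the 5 in the canonical transcript. The i∆HSA peak at chr1:113058040-113058444 had a score of 4, lay inside it in intron 2, and shared 405 bp with it. Both were promoter peaks only through start sites of transcripts that are not annotated as protein-coding. An iBRG1 peak of score 2 also lay at the upstream coding start of WNT2B, 19 bp from it by its midpoint, and an i∆HSA peak of score 3 lay in an intron 8247 bp from the nearest start.

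WNT7B, a ligand that acts in the lung and the vasculature of the brain, had no iBRG1 peak within 5 kb and 1 i∆HSA peak with a score of 20, the third highest of the 23 and at percentile 92.3 of its list. The percentile of a score is the percentage of peaks of the same list that rank below it, with ties counted at their middle. The midpoint of the WNT7B peak lay 2305 bp upstream of the start site, and it also touched the promoter of CR536603.1.

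WNT9A and WNT3A are neighbours on chromosome 1, and both had i∆HSA peaks only. WNT9A, which acts in joint formation, had 2 of them, against a mean of 0.678 at genes of like length (0.49 in the iBRG1 list). One lay in intron 1 with a score of 13 (percentile 87.5), and the other lay 982 bp from the start site with a score of 2. WNT3A, a widely used activator of the canonical branch, had 1 in the non-coding part of exon 4 with a score of 5. Over the stretch from WNT9A to WNT3A, chr1:228106357-228248972, the i∆HSA list had 4 peaks and the iBRG1 list had 0. The nearest iBRG1 peak lay 216677 bp from WNT9A and 103338 bp from WNT3A. The other neighbouring pairs, WNT3 with WNT9B, WNT6 with WNT10A and WNT1 with WNT10B, had 0 peaks in both lists.

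The remaining ligands with peaks were WNT2, WNT5B and WNT8B, each with peaks in both lists that did not overlap. WNT2 had iBRG1 peaks of score 3 and 1 and an i∆HSA peak of score 2, all in introns, and 1 peak of each list also lay within the annotated body of CFTR. WNT5B had an iBRG1 promoter peak of score 1, which also lay in FBXL14, and an intronic i∆HSA peak of score 7. WNT8B had an iBRG1 peak of score 2 in intron 1 and an i∆HSA peak of score 3 over exons 4 to 6. The smallest gap between the lists was 4810 bp at WNT2, 28598 bp at WNT5B and 9972 bp at WNT8B.

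In the number of genes with a peak the receptors stood near the genes of like length. Of 12 genes, 4 had an iBRG1 peak, against 4.43 at like length, and 5 had an i∆HSA peak, against 4.96. They held 11 iBRG1 and 9 i∆HSA peaks, against 7.22 and 8.15. Of the 11 iBRG1 peaks, 5 lay at LRP6 and 4 at FZD3. FZD1, FZD6, FZD7, FZD8, FZD9 and FZD10 had none in either list. FZD5, a receptor for canonical ligands, had 1 promoter peak in each list. The iBRG1 peak at chr2:208632645-208635120 had a score of 5 (percentile 75.6) and touched both exons, but did not reach the 3′ part of the gene. The i∆HSA peak at chr2:208634456-208635073 had a score of 6 (percentile 70.0), and all 618 bp of it lay within the iBRG1 peak. Bases here and below are the plus strand of GRCh37 (hg19), in lower case, with capitals for any match to a motif named below. The 200 bases at the centre of the shared stretch, chr2:208634665-208634864, are shown as the clearest case of a CpG-rich start site with a peak in both lists, with 25 CpG, 79.5% G or C and no match to those motifs.
FZD5: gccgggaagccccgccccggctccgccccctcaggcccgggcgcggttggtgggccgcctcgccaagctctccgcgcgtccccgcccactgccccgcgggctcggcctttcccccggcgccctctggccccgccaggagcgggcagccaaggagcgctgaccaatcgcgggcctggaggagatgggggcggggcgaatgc

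FZD3, a receptor best known for axon guidance and planar polarity, held the highest scores of all the Wnt genes and 3 of the 7 shared pairs. Upstream of the gene an iBRG1 peak of score 3 and an i∆HSA peak of score 12 shared 960 bp, a stretch that also belongs to the body and promoter of FBXO16. In intron 3 a pair scored 14 and 13 and shared 2023 bp. Beyond the 3′ end of the gene, by 2510 and 2693 bp, a pair scored 18 and 59, at percentiles 96.2 and 98.3 of their lists, and shared 1244 bp. A further iBRG1 peak of score 3 in intron 4 had no i∆HSA partner within 10651 bp. None of the 7 peaks lay within 1 kb of a start site of FZD3. FZD3 had 4 iBRG1 and 3 i∆HSA peaks, against means of 1.19 and 1.18 at genes of like length.

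LRP6, 151020 bp long, had 5 iBRG1 peaks and 1 i∆HSA peak, none of them overlapping. Genes of like length had a mean of 1.81 and 1.94. The iBRG1 scores were 1, 3, 1, 6 and 3, and the peak of score 6 covered exons 6 and 7 of 23. The i∆HSA peak lay in intron 2 with a score of 23 (percentile 93.5), 10621 bp from the closest iBRG1 peak. Of the 5 iBRG1 peaks, 4 also lay in the annotated body of BCL2L14. LRP5, its paralogue, had no iBRG1 peak and 2 i∆HSA peaks of score 2 in introns 1 and 16. For LRP5 the means at like length were 1.67 and 1.77. FZD2 had no iBRG1 peak and 2 i∆HSA peaks of score 4, one with its midpoint 883 bp upstream of its start site and one 4930 bp beyond its end. For FZD2 the means at like length were 0.228 and 0.33. FZD4 had 1 iBRG1 peak of score 2, 2552 bp beyond its end and within PRSS23, and no i∆HSA peak. The nearest i∆HSA peak lay 5720 bp from FZD4, just outside the window of 5 kb, and 2685 bp from that iBRG1 peak.

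**Figure D3:**
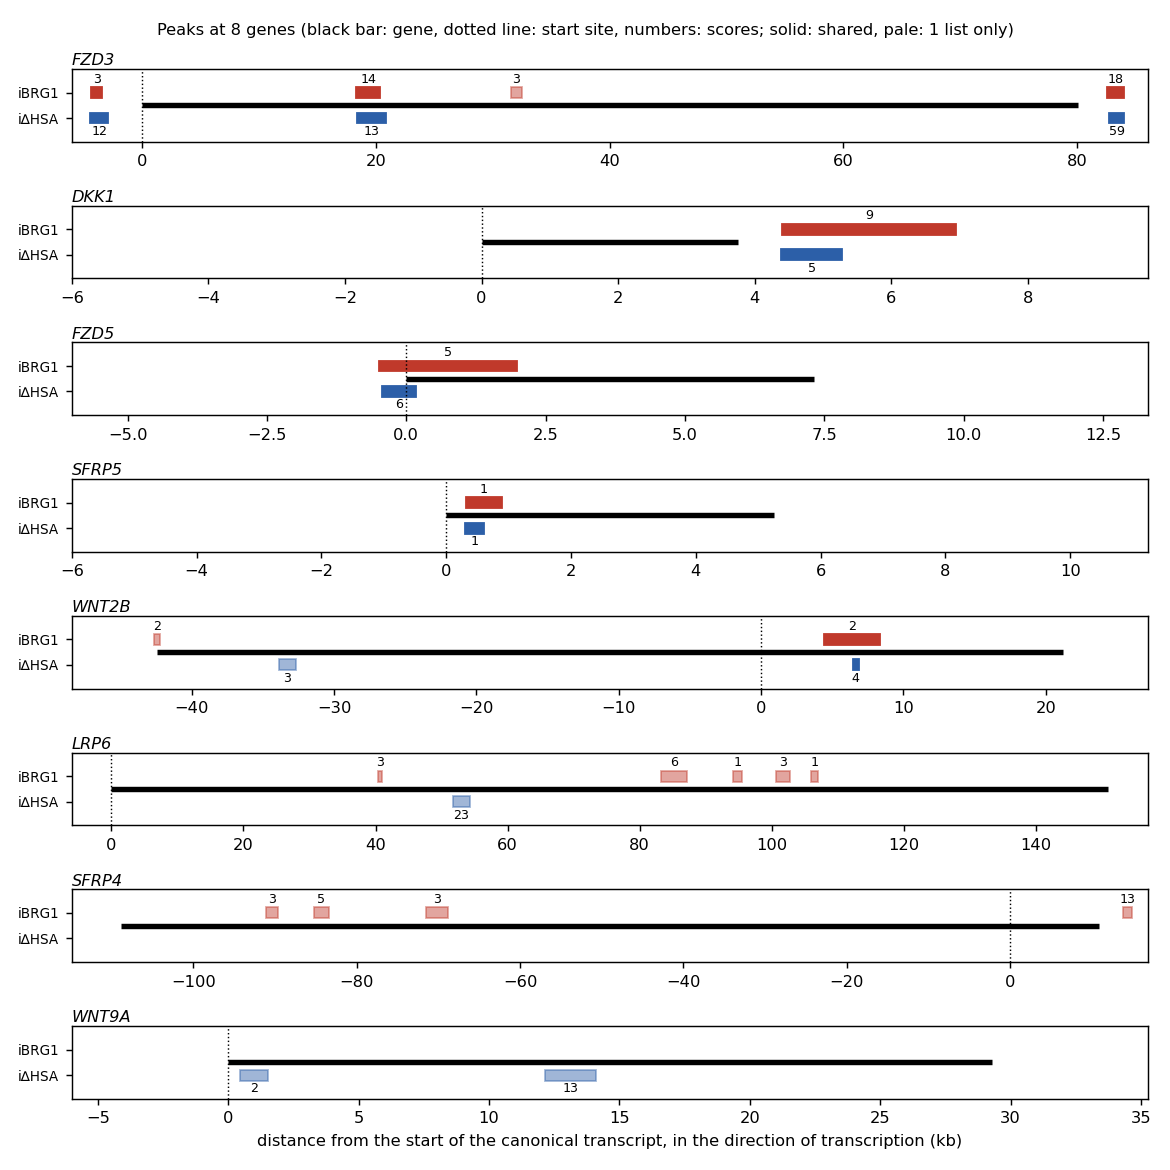
Peaks at 8 Wnt genes against distance from the canonical start site in the direction of transcription (kb, horizontal axis, scaled separately for each gene), with the 2 lists as rows. Black bars are gene bodies, numbers are scores, and solid boxes are shared peaks, which at FZD3 form 3 pairs and at LRP6 none.

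The antagonists had slightly more genes with an iBRG1 peak than genes of like length gave, and about as many with an i∆HSA peak. Of 10, 6 had an iBRG1 peak, against 4.44, and 5 had an i∆HSA peak, against 4.94. They held 10 iBRG1 peaks against 8.96, but 5 i∆HSA peaks against 9.38. SFRP1, SFRP2 and DKK4 had none. SFRP5, an inhibitor that binds Wnt ligands, had 1 promoter peak in each list over exon 1, at chr10:99530862-99531445 and chr10:99531144-99531451. Both had a score of 1, at percentile 15.8 of the iBRG1 list and 1.64 of the i∆HSA list, and they shared 302 bp. No other shared pair had lower scores. The bases at its centre, chr10:99531195-99531394, held 20 CpG and are shown beside FZD5 as the other CpG-rich start site in both lists.
SFRP5: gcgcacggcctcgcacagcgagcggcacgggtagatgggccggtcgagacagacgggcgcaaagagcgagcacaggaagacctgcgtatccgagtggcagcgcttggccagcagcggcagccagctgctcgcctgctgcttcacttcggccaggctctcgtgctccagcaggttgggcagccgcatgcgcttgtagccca

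DKK1, which is itself a transcriptional target of the canonical branch, had no promoter peak but a shared pair just beyond its 3′ end. The iBRG1 peak at chr10:54078436-54080990 had a score of 9 (percentile 88.2), and the i∆HSA peak at chr10:54078428-54079322 had a score of 5 (percentile 63.1). They began 634 and 626 bp past the gene and shared 887 bp. That stretch held 2 matches to the AP-1 motif (TGACTCA or TGAGTCA) and 2 to the TCF/LEF motif (CTTTGAT), each read on both strands. Of windows of that length centred on all shared stretches in the lists, 13.8% held 2 or more AP-1 matches and 1.08% held 2 or more TCF/LEF matches. Those percentages are for a single stretch, whereas DKK1 had the most of both matches among the 7 shared stretches at Wnt genes. Each of the others held 0 TCF/LEF matches and at most 1 AP-1 match. The window chr10:54078960-54079259 is shown because 3 of the 4 matches lie in it, in capitals, the first an AP-1 match and the others TCF/LEF matches, the earlier of which reads on the minus strand. A match describes the letters and not a binding event.
DKK1: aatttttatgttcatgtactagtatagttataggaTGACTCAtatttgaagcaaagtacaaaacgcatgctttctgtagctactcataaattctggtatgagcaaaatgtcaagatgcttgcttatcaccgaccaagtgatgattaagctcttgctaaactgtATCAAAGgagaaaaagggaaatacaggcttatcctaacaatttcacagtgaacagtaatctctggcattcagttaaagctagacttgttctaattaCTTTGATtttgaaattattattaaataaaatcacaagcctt

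SFRP4, another inhibitor that binds Wnt ligands, had 4 iBRG1 peaks and no i∆HSA peak, the nearest being 97721 bp from the gene. Genes of like length had a mean of 1.63 and 1.61. One iBRG1 peak, at chr7:37941478-37942617, lay 2917 bp beyond the gene end with a score of 13 (percentile 93.1), the third highest of the 27, in a stretch also covered by ENSG00000290149. The other three had scores of 3, 5 and 3 and lay in an extended gene model, with midpoints 70114, 84357 and 90365 bp upstream of the canonical start. The 200 bases at the centre of the peak of score 13, chr7:37941948-37942147, are shown as the highest-scoring iBRG1 peak at a Wnt gene without a partner, and they hold 1 TEAD match (GGAATG, here on the minus strand) and 1 AP-1 match.
SFRP4: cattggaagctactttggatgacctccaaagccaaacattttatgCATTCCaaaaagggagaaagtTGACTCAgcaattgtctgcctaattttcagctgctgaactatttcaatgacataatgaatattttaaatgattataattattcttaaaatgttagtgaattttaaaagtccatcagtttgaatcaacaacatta

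Among the other antagonists, DKK3, a divergent member of its family, had iBRG1 peaks of score 5 and 2. Both touched the 1 kb around alternative start sites, but none of those starts belonged to a protein-coding transcript. DKK3 also had an intronic i∆HSA peak of score 3, with 14257 bp between the closest peaks of the lists. WIF1 had an iBRG1 peak of score 2 in intron 2 and an i∆HSA peak of score 7 over exon 3, 19185 bp apart. DKK2 had 1 iBRG1 peak of score 1, 173864 bp upstream of the canonical start within a longer gene model. FRZB had 1 i∆HSA peak of score 3 in intron 2.

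For sharing, score and motifs, the peaks at the Wnt genes were set beside their whole lists, which also hold peaks away from genes. No difference was tested. Shared peaks made up 7 of 27 iBRG1 peaks (25.9%, 95% Wilson interval 13.2 to 44.7, counting error only), against 20.5% of the list, and 7 of 23 i∆HSA peaks (30.4%, 15.6 to 50.9), against 19.6%. Without FZD3 the shares were 4 of 23 (17.4%) and 4 of 20 (20%). With an overlap of 50% of both peaks required they were 14.8% and 17.4%, against 12.3% and 11.7% of the lists. The median score was 3 in the iBRG1 list, where all peaks had a median of 2, and 4 in the i∆HSA list, where all peaks also had 4. Scores are not set side by side between lists as amounts of binding. By place, 7 of the 27 iBRG1 peaks lay at promoters (25.9%), 13 in introns (48.1%) and 4 downstream (14.8%). Over all pairings of an iBRG1 peak with a protein-coding gene these shares were 23.0%, 54.7% and 6.01%. A peak near several genes counts once for each in the pairings. Of the 23 i∆HSA peaks, 6 lay at promoters (26.1%), 10 in introns (43.5%) and 3 downstream (13.0%). Over the i∆HSA pairings the shares were 24.9%, 51.2% and 8.22%.

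**Figure D4:**
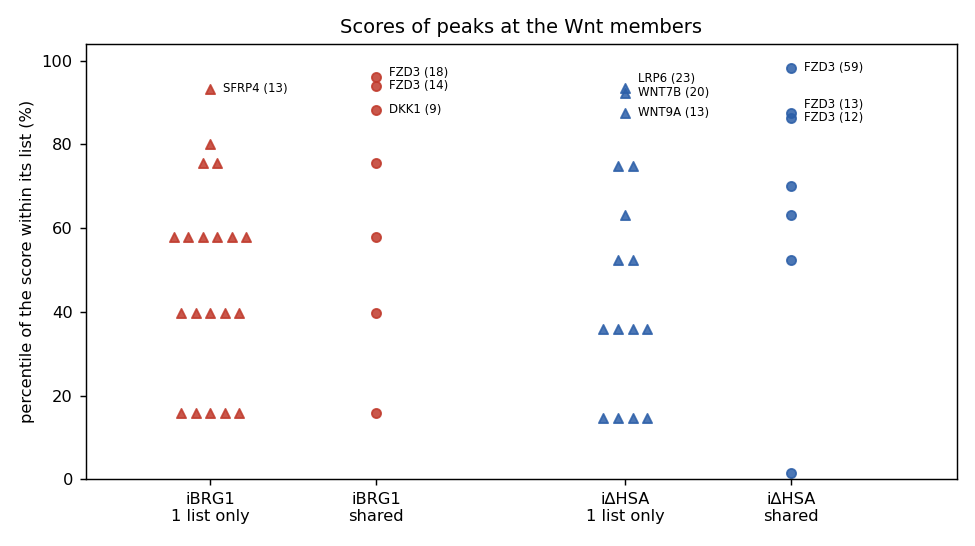
Score percentile of each peak at a Wnt gene within its own list (vertical axis, %), split into shared peaks (circles) and peaks of 1 list only (triangles). The 7 shared iBRG1 peaks, 3 of them at FZD3, had a median percentile of 75.6 and the other 20 one of 48.8. In the whole iBRG1 list 20.5% of peaks were shared, and 34.8% when only scores of at least 5 were kept.

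The i∆HSA peaks at Wnt genes had a higher median G and C content than their list, which also holds peaks away from genes. Their median content was 47.2%, against 38.2% of all i∆HSA peaks, while the iBRG1 peaks had 39.2% against 38.6%. The spread of these medians was not computed. No peak at a Wnt gene had a content under 25%, a class that made up 0.888% of the iBRG1 list and 4.64% of the i∆HSA list. In the 200 bp at the centre of each peak, the AP-1 motif was found in 3 of 27 iBRG1 peaks (11.1%, against 8.85% of the list) and 4 of 23 i∆HSA peaks (17.4%, against 6.14%). Without FZD3 the AP-1 share of the i∆HSA peaks was 2 of 20 (10%). The TEAD motif was found in 5 (18.5%, against 12.1%) and 3 (13.0%, against 10.1%). The TCF/LEF motif was found in 0 of 27 and 0 of 23, which allows a share of up to 12.5% and 14.3%, against 3.13% and 2.79% of the lists.

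Genes that act elsewhere in the pathway, 52 in all, were counted the same way. Of these, 27 had an iBRG1 peak, against 30.3 at genes of like length, and 32 had an i∆HSA peak, against 32.2. They held 48 and 55 peaks, against 65.8 and 68.1 at like length. A shared peak lay at 12 of them, against 11.7. The 9 agonists and their receptors, the R-spondins, LGR4 to LGR6, RNF43 and ZNRF3, all had a peak in at least 1 list, with 8 in the iBRG1 list and 7 in the i∆HSA list, against 6.01 and 6.19 at like length. The 12 genes acting in the nucleus gave 4 and 6, against 7.03 and 7.62, the 9 other receptors and modulators 4 and 6, against 5.2 and 5.4, and the 19 genes acting in the cytoplasm 11 and 10, against 10.7 and 11.5. The 3 genes of ligand secretion and turnover, PORCN, WLS and NOTUM, had an i∆HSA peak each and no iBRG1 peak, against 1.51 and 1.36 genes at like length. Among genes with peaks in both lists, the highest summed score percentiles belonged to BTRC, which directs beta-catenin to degradation, DAAM1, a formin of the planar polarity branch, and TCF7L2, a TCF/LEF factor. BTRC had 5 peaks in each list, DAAM1 had 4 and 5, and TCF7L2 had 3 and 4, counts that entered the sum by which these genes were chosen. They are long genes, of 182760 to 217432 bp. Genes of like length had a mean of 2.46 and 2.25 for BTRC, 2.25 and 2.12 for DAAM1, and 2.66 and 2.37 for TCF7L2.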

How the data were processed

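CUT&RUN libraries of SW-13 cells expressing V5-tagged BRG1 (iBRG1, 2 samples) or BRG1 without the HSA domain (i∆HSA, 2 samples) were made by the authors with a digestion of 30 min and 12 PCR cycles. The authors deposited 1 peak list per construct, giving coordinates and a whole-number score for each peak. Per the labels, cutadapt, Bowtie2, Picard, SAMtools and MACS2 2.2 were used with hg19. Whether replicates were pooled before peak calling, and the scale of the score, are not given in the sources used here. The study's methods name a minimum score of 5 and the removal of peaks from negative controls. The deposited lists also hold lower scores. At 5 or above were 6575 of 24212 peaks in the iBRG1 list and 10440 of 25371 in the i∆HSA list. At Wnt genes these were 8 of 27 and 11 of 23. The study reports far fewer peaks per construct than the deposited lists hold. Whether control peaks were removed from those lists is not given in the sources used here. All deposited peaks were used here. No file gives counts or the depth reached, so the precision of a single peak is unknown.

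Peaks were assigned to GENCODE release 44 protein-coding genes mapped to GRCh37 (gene body and 5 kb on each side; promoters, 1 kb on each side of any start). Shared peaks overlapped by at least 1 bp. Genes of like length were the 500 nearest in length. Genes described in full had a promoter peak in both lists, a shared peak, 1 of the 5 highest scores at Wnt genes in a list, or 1 of the 5 largest differences in peak number. The members and lists were chosen with earlier results of these data known. Motifs were matched in the central 200 bp. The code for overlap, sharing and window edges was tested on simulated intervals. Alternatives covered score minimum, window, promoter width, overlap, motif window, peaks of low G or C content and FZD3. Python 3.11.15, pandas 2.3.3 and pysam 0.24.0 were used. The sequence at the WNT7B peak is not reported here.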

Additional observations from a re-analysis of the deposited data

How the results depend on the processing

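Of 84 alternatives that could change a value, 65 left a count within 1.5 times, or a share or median percentile within its 95% interval, and 19 did not. That interval is wide for 23 to 27 peaks. Within it the i∆HSA AP-1 share reached 36.4% at scores of at least 5, against 8.0% of the list. That share was 4 of 11 peaks, with peaks at FZD3 among the 4. Keeping scores of at least 5 left 6 Wnt genes, 8 peaks, 2 promoter genes, 50% shared peaks and a median score percentile of 84.2 in the iBRG1 list. It left 9 genes, 11 peaks, 2 promoter genes and a percentile of 86.3 in the i∆HSA list, with 1 gene with a promoter peak in both lists and 3 with a shared peak. All protein-coding genes fell too, to 18.1% and 28.2% with a peak, 6.67% and 11.8% with a promoter peak, 2.80% with one in both lists and 7.82% with a shared peak, and 34.8% of the iBRG1 list was then shared. Keeping scores at or above each list's median left 3 iBRG1 promoter genes, 11 i∆HSA genes and 14 i∆HSA peaks. Widening the window to 20 kb gave 22 iBRG1 genes, 42 iBRG1 peaks and 38 i∆HSA peaks, and with 20 i∆HSA genes it turned the order of the lists. A motif window of 250 bp on each side gave AP-1 matches in 29.6% of iBRG1 peaks. A reciprocal overlap of 50% left 2 genes with a shared peak (10.3% of all genes), and start sites of coding transcripts alone left 2 genes, FZD5 and SFRP5, with a promoter peak in both lists. Leaving out peaks under 25% G or C, of which the Wnt genes have none, or FZD3, was chosen after seeing the data. No paired analysis was possible because the 2 samples of a construct are not told apart in its list, and so neither could be left out. Read depth is unknown, so an unlisted peak is not evidence that binding was absent.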

Other observations

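The 21 Wnt genes with no peak lay 7507 to 265415 bp from the nearest iBRG1 peak (median 43359 bp) and at least 10120 bp from the nearest i∆HSA peak (median 61078 bp). At the 6 genes with peaks in both lists but none shared, the closest peaks of the lists were 4810 to 28598 bp apart, with a median of 12439 bp.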
